A study of Homo sapiens with 11 samples.

Results

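HSPA1A, HSPA1B, HSPA5 and HSPA8 are 4 of the 19974 protein-coding genes annotated on chromosomes 1 to 22 and X. They encode chaperones of the HSP70 family and were examined for CUT&RUN regions in HEK293T, a kidney-derived human cell line of embryonic origin into which the SV40 large T antigen was introduced. A region was assigned to a gene when its summit, the position of highest signal given by the authors' peak caller, lay within 1000 bp of either end of the gene's RefSeq span. This gave 6 of the 5435 regions in the 5 deposited lists. HSPA1B had a region in all 3 target lists, HSPA5 had one in both FLAG lists, HSPA8 had one in edit_myc_FLAG alone, and HSPA1A had none in any list. The genes were selected on the presence of such regions in these lists, so the presence and the values of these regions are a description and were not tested.

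In CUT&RUN a nuclease is tethered to the antibody in permeabilised cells, and the fragments it cuts free near the target protein are sequenced. Per the labels there were 3 libraries of edit_myc_FLAG, 3 of myc_FLAG and 3 of endog_myc, with 1 mouse IgG and 1 rabbit IgG library as background. All 11 came from HEK293T cells, with about 500000 cells a library. FLAG was detected with a mouse antibody and myc with a rabbit antibody, so mouse IgG is the matched background of the FLAG lists and rabbit IgG that of endog_myc. The labels do not say what "edit" stands for, how the tagged myc was introduced, or whether the replicates were separate cultures. Each target group has 1 list for its 3 libraries and each IgG list comes from 1 library, so the spread between replicates cannot be had from them. Peak lists do not give the read depth, which can set how long a list is. A peak list holds no expression values, so the identity of the cell line was not examined.

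HSP70 chaperones bind exposed hydrophobic stretches of unfolded proteins in a cycle driven by ATP. J-domain proteins bring substrates and trigger ATP hydrolysis, and exchange factors release ADP so that the substrate can leave. HSPA1A and HSPA1B are the stress-inducible cytosolic forms and are induced by the heat shock factor HSF1, HSPA8 is the constitutive cytosolic form that also uncoats clathrin vesicles, and HSPA5, also called BiP, is the form of the endoplasmic reticulum and a regulator of its unfolded protein response. MYC binds DNA as a dimer with MAX, preferably at the E-box.

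The promoters of HSPA1B and HSPA1A are shown first because only HSPA1B of these near-identical copies had regions. HSPA1B lies on chromosome 6 from 31827738 to 31830254 and HSPA1A upstream of it from 31815543 to 31817942, both on the plus strand of hg38. The sequences below, from RefSeq on GRCh38.p14, are the 250 bases before the annotated start of each, chr6:31827488-31827737 for HSPA1B and chr6:31815293-31815542 for HSPA1A, both on the plus strand. Capitals mark letters that differ between the aligned copies or have no partner in the other.
HSPA1B: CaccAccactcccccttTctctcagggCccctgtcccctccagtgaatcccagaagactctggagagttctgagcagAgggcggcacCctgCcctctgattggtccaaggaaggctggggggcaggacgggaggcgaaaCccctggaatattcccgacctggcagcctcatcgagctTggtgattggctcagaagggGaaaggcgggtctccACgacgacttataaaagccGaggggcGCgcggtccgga
HSPA1A: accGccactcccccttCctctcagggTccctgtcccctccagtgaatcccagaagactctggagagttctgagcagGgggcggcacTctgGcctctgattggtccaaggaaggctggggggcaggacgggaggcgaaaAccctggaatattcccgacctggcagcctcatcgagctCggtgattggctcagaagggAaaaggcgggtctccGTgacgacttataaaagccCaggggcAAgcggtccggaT

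The copies are close enough that short reads can fit both. Over 300-base windows that also hold the first 50 bases of each gene, 277 of 301 aligned positions were identical (92.0%), 22 were mismatches and 2 were gaps. The longest identical run was 49 bases. Of the 265 stretches of 36 bases in the HSPA1B window, 28 also occurred in the HSPA1A window, and of the 251 stretches of 50 bases none did. By the same alignment the HSPA1B window was 48.9% identical to that of HSPA5, 48.4% to that of HSPA8 and 49.1% to that of HSPA1L, the divergent neighbour of HSPA1A. The sources used here give neither the read length nor the treatment of reads that map to several places. The placing of reads between HSPA1A and HSPA1B is therefore uncertain, and its part in the regions at HSPA1B and in the lack of one at HSPA1A was not tested.

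The HSPA5 promoter is shown because it carries an element of the unfolded protein response and the regions of both FLAG lists. HSPA5 lies on chromosome 9 from 125234853 to 125241343 on the minus strand, and the sequence is the 250 bases before its start, chr9:125241344-125241593, minus strand, RefSeq, GRCh38.p14. Capitals mark CCAAT in either orientation and the ER stress element, which is CCAAT and CCACG with 9 bases between them.
HSPA5: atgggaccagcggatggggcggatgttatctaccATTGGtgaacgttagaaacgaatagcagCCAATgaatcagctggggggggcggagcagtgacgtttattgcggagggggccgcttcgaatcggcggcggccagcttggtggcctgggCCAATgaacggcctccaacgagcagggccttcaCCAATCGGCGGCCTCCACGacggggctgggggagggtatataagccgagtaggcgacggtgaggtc

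HSPA8 lies on chromosome 11 from 123057489 to 123062462 on the minus strand. A 30-base stretch of its edit_myc_FLAG region is shown for its overlapping matches to GAANNTTC and TTCNNGAA, each part of a heat shock element. It is chr11:123062347-123062376, minus strand, RefSeq, GRCh38.p14, and capitals mark GAANNTTC and TTCNNGAA.
HSPA8: gggcgagcttGAAAGTTCCAGAAcgctgcg

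Of the 4 genes, edit_myc_FLAG had a region at 3, myc_FLAG at 2 and endog_myc at 1, and there was a region at 0 of 4 in mouse IgG and in rabbit IgG. Over all protein-coding genes, 4.27% had such a region in edit_myc_FLAG, 1.65% in myc_FLAG, 1.8% in endog_myc, 0.02% in mouse IgG and 0.0851% in rabbit IgG. As the genes were chosen with the regions in these lists known, nothing is read from the gap between the counts and these shares. The summits of the 6 regions lay between 38 and 208 bp from a gene end, far inside the limit of 1000 bp. The nearest rows outside it were the HSPA1B regions themselves as seen from HSPA1A, 9602 to 9671 bp from its end. No IgG list had a row within 50 kb of any of the 4 genes.

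**Figure D1:**
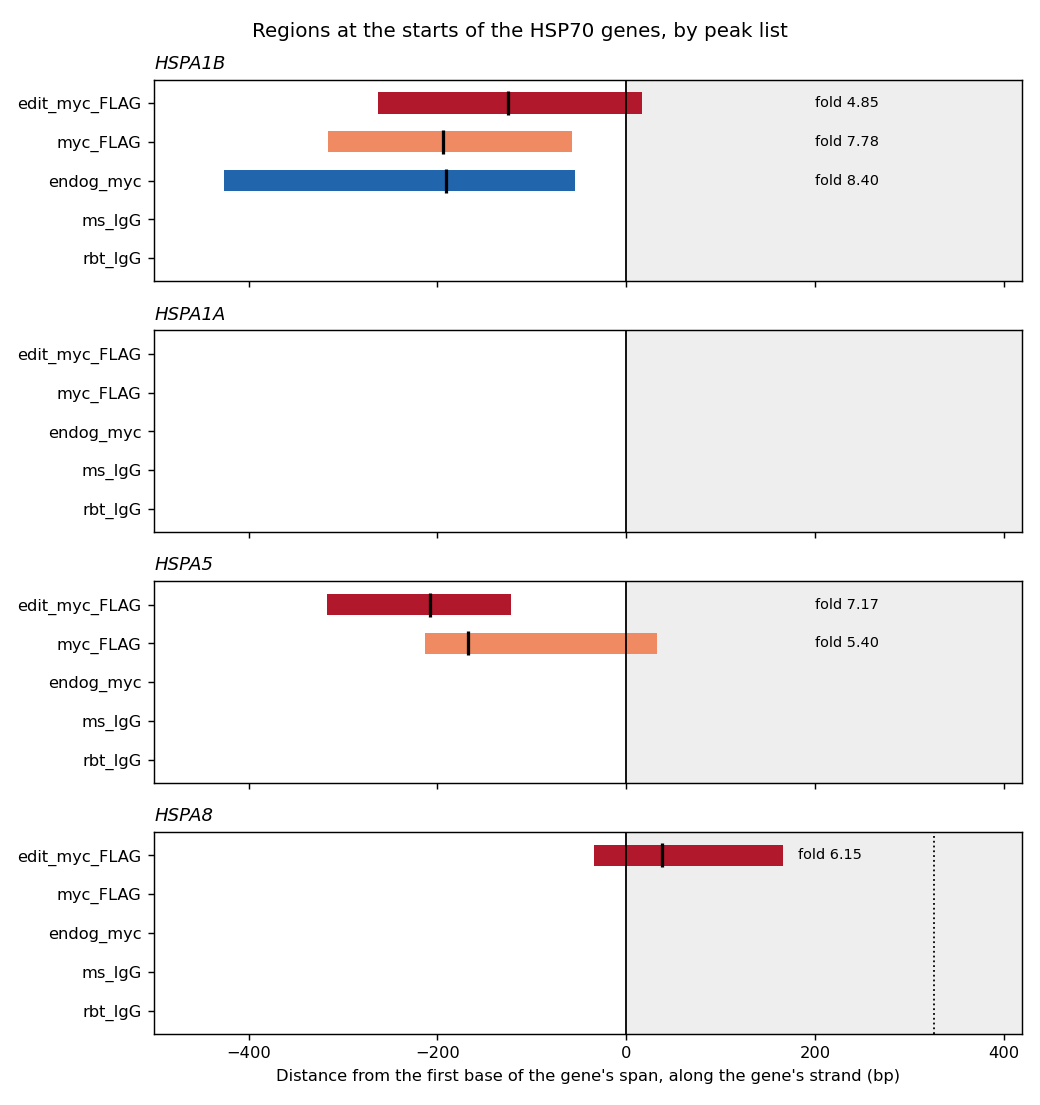
Regions at the starts of HSPA1B, HSPA1A, HSPA5 and HSPA8. The x axis gives the distance in bp from the first base of the gene's span along its strand (grey, inside the span), each bar is 1 region of the list named on the y axis with the authors' fold beside it, the black tick is its summit, and the dotted line for HSPA8 is the start used in the RefSeq promoter table. HSPA1B has bars in 3 lists, HSPA5 in 2, HSPA8 in 1 and HSPA1A in none, and neither IgG list has a bar.

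At HSPA1B, the stress-inducible cytosolic chaperone, the edit_myc_FLAG region ran from 31827476 to 31827754, had its summit at 31827613 and had a fold of 4.85 with a −log10 q of 2.85. The myc_FLAG region ran from 31827423 to 31827680, had its summit at 31827544 and had a fold of 7.78 with a −log10 q of 9.89. The endog_myc region ran from 31827312 to 31827683, had its summit at 31827547 and had a fold of 8.395 with a −log10 q of 13.7. Fold and −log10 q are the authors' values for single peaks, and what the fold is set against is not stated in the labels. They were not tested between lists.

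Within its own list the HSPA1B region stood low in edit_myc_FLAG and high in myc_FLAG and endog_myc. Among the regions at ends of protein-coding genes its rank by fold was 521 of 696 for edit_myc_FLAG, 30 of 255 for myc_FLAG and 21 of 287 for endog_myc. Over the whole lists it ranked 1449 of 2172, 293 of 1290 and 218 of 1359 in the same order. The lists differ in length, so these ranks show no change between groups. With only the 1290 highest-fold regions of each target list, the edit_myc_FLAG region at HSPA1B was no longer listed.

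The HSPA1B regions lay over the same stretch of the promoter. The summits of myc_FLAG and endog_myc were 3 bp apart, at 194 and 191 bp before the first base of the gene, and the edit_myc_FLAG summit lay 125 bp before it, 69 bp from that of myc_FLAG and 66 bp from that of endog_myc. The whole 258 bp of the myc_FLAG region lay inside the 372 bp of the endog_myc region. The edit_myc_FLAG region, 279 bp wide, shared 205 bp with myc_FLAG and 208 bp with endog_myc. It alone reached past the first base of the gene, by 16 bp, while the others stopped 58 and 55 bp before it.

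HSPA1A, whose product is the stress-inducible twin of that of HSPA1B, had no region at either end in any list. Its nearest rows in edit_myc_FLAG, myc_FLAG and endog_myc were the HSPA1B regions, and its neighbours HSPA1L, a related HSP70 gene 260 bp away, and LSM2, a subunit of the ring that binds U6 RNA, had none either. Within 500 kb of HSPA1A, edit_myc_FLAG had 2 regions besides that of HSPA1B. They lay nearest to HLA-B (fold 4.56), which encodes an antigen-presenting molecule, and to MSH5 (fold 6.43), a meiotic recombination factor. In endog_myc there was 1, nearest to AGPAT1 (fold 6.18), an enzyme of phospholipid synthesis. In myc_FLAG there was none. These neighbours were named after their values were seen.

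At HSPA5, the chaperone BiP of the endoplasmic reticulum, the edit_myc_FLAG region ran from 125241465 to 125241660 with its summit at 125241551, a fold of 7.17 and a −log10 q of 6.79. The myc_FLAG region ran from 125241311 to 125241556 with its summit at 125241511, a fold of 5.40 and a −log10 q of 3.45. Neither endog_myc nor an IgG list had a row within 50 kb. The nearest endog_myc row was 505034 bp away. A gene missing from a list has no region past the caller's threshold there, which is not a measured absence of signal.

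HSPA5 stood in the upper part of edit_myc_FLAG and below the median of myc_FLAG. Among the regions at gene ends it ranked 76 of 696 by fold in edit_myc_FLAG and 150 of 255 in myc_FLAG. The summits were 40 bp apart, 208 and 168 bp before the start of the gene, but the regions shared only 92 bp, 46.9% of the shorter one. The edit_myc_FLAG region stopped 122 bp before the start, whereas the myc_FLAG region ran 32 bp into the gene. HSPA5-DT, a long non-coding RNA transcribed the other way, begins at 125241656, 105 bp from the edit_myc_FLAG summit and 145 bp from the myc_FLAG summit, so both summits lie between divergent starts and cannot be given to one of them. On the other side of HSPA5, an edit_myc_FLAG region with a fold of 4.88 lay 30 bp from an end of RABEPK, a Rab9 effector, and 34281 bp from HSPA5.

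At HSPA8, the constitutive cytosolic chaperone, the single region was that of edit_myc_FLAG from 123062296 to 123062496, with its summit at 123062424, a fold of 6.15 and a −log10 q of 4.94. By fold it ranked 198 of 696 among the regions at gene ends, above their median of 5.45, and 691 of 2172 in the whole list. Its summit lay 38 bp inside the annotated span. The start used in the RefSeq promoter table is 123062136, further inside the span, and the summit was 288 bp before that start. The other lists had no row within 50 kb, and the nearest were 2001178 bp away in myc_FLAG and 6940583 bp away in endog_myc. The long non-coding RNA LOC124902775 begins on the other strand at 123062662, 238 bp from the summit.

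**Figure D2:**
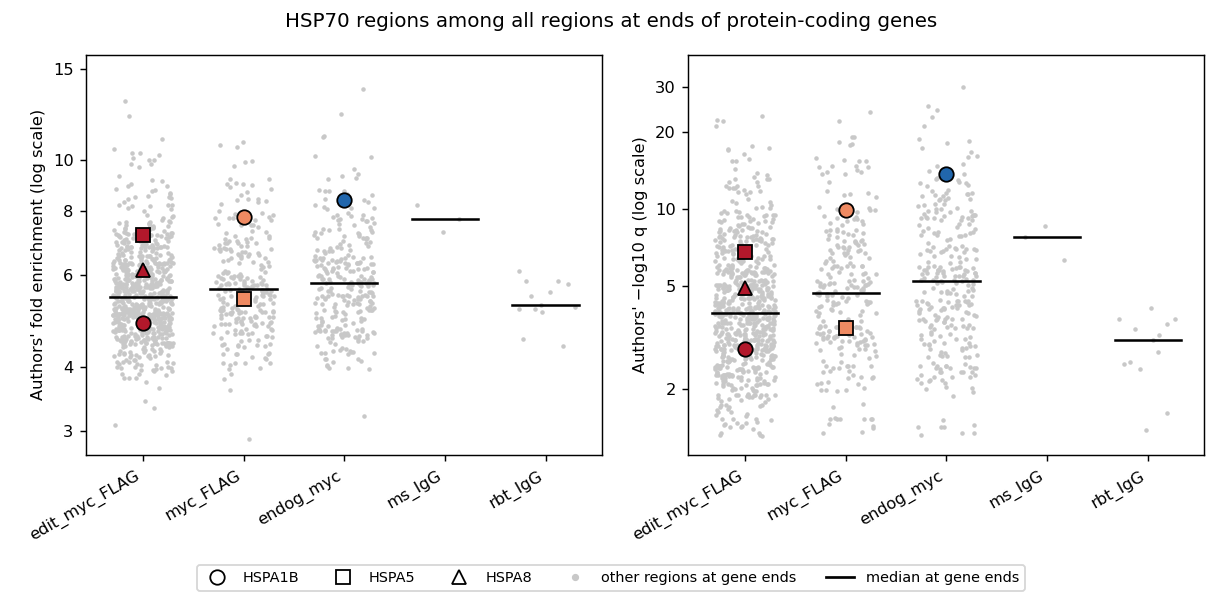
Authors' fold enrichment (left, log axis) and −log10 q (right, log axis) of the HSP70 regions, drawn as large symbols, among all regions at ends of protein-coding genes in each list, drawn as grey points with their median as a bar. HSPA1B lies above the median in myc_FLAG and endog_myc and below it in edit_myc_FLAG, and HSPA5 lies above it in edit_myc_FLAG and below it in myc_FLAG.

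The 6 regions had a side in common, but they are not 6 separate places. Those of HSPA1B overlap each other, and so do those of HSPA5. Every summit lay before the start given in the promoter table, by 125 to 288 bp. That of HSPA8 nonetheless lay 38 bp inside the annotated span. None lay at the 3′ end of a gene, although either end would have counted. This is the usual side: of all links between a region and a protein-coding gene in that table, the summit lay before the start in 65.4% of 746 links in edit_myc_FLAG, in 68.9% of the 293 of myc_FLAG and in 76.0% of the 317 of endog_myc. A summit 1 to 300 bp before the start was found in 49.7%, 51.5% and 57.7% of these links in the same order. The regions were 196 to 372 bp wide, close to the median width at gene ends of 235 bp for edit_myc_FLAG, 266 bp for myc_FLAG and 293 bp for endog_myc. The G+C content of the 300-base windows was 62.3% at HSPA1B, 60.3% at HSPA1A, 61.3% at HSPA5 and 62.7% at HSPA8, against a median of 62.7% over 15813 protein-coding promoters, and CpG occurred 18, 15, 26 and 24 times, against a median of 22.

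Motifs were searched on both strands in the same windows, 250 bases before to 50 after the start. The E-box CACGTG, held by 8.87% of all protein-coding promoters, and its variant CACGCG, held by 14.8%, matched none of the 4 windows. This says only that these letters are not there, and the windows do not cover the whole of most of the regions. At HSPA8 the window held 91 of the 201 bp of the region, and the summit lay 38 bp outside it. For endog_myc at HSPA1B it held 196 of 372 bp.

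A form of the heat shock element, GAANNTTC or TTCNNGAA, matched in HSPA1B, HSPA1A and HSPA8, and not in HSPA5. Each form is only part of an element, so a match to it is not a whole element. The form GAANNTTC occurred in 5.57% of promoters. It matched once in HSPA1B, 105 to 98 bases before the start, inside all 3 regions and with its centre 24 bp from the edit_myc_FLAG summit, 92 bp from the myc_FLAG summit and 90 bp from the endog_myc summit. The same letters stood in HSPA1A at 106 to 99 bases before the start, with no region there. HSPA8 held the form in 2 places, each overlapping a match to TTCNNGAA, which occurred in 6.58% of promoters. The pair printed above lay inside the edit_myc_FLAG region with its GAANNTTC match centred 62 bp from the summit, and the pair near the start lay outside it.

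CCAAT, found in 36.3% of promoters, matched 2 times in each of HSPA1B, HSPA1A and HSPA8 and 5 times in HSPA5. In HSPA5 the match nearest to the edit_myc_FLAG summit was centred 6 bp from it and the match nearest to the myc_FLAG summit 18 bp from it. The ER stress element, whose first letters are also a CCAAT match, was in 19 of the 15813 promoters (0.12%), HSPA5 among them. It lay 66 to 48 bases before the start, inside the myc_FLAG region and outside the edit_myc_FLAG region, which ends upstream of it. Only the exact spelling was searched, and near matches to the ER stress element were not counted in either region. TATAAA, in 9.64% of promoters, matched in HSPA1B and HSPA1A, and the HSPA1B match lay inside the edit_myc_FLAG region and outside the other regions. GGGCGG, in 58.5%, matched in all 4 windows. In HSPA5 the nearest match was centred 2 bp from the myc_FLAG summit and 24 bp from the edit_myc_FLAG summit. The HSPA1B match was centred 44 bp from the edit_myc_FLAG summit, 24 bp from that of myc_FLAG and 22 bp from that of endog_myc. Its nearest CCAAT match was 25, 44 and 41 bp from these summits in the same order. In HSPA8 the GGGCGG matches lay outside the region. A match is a description of the letters and does not show a bound site.

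**Figure D3:**
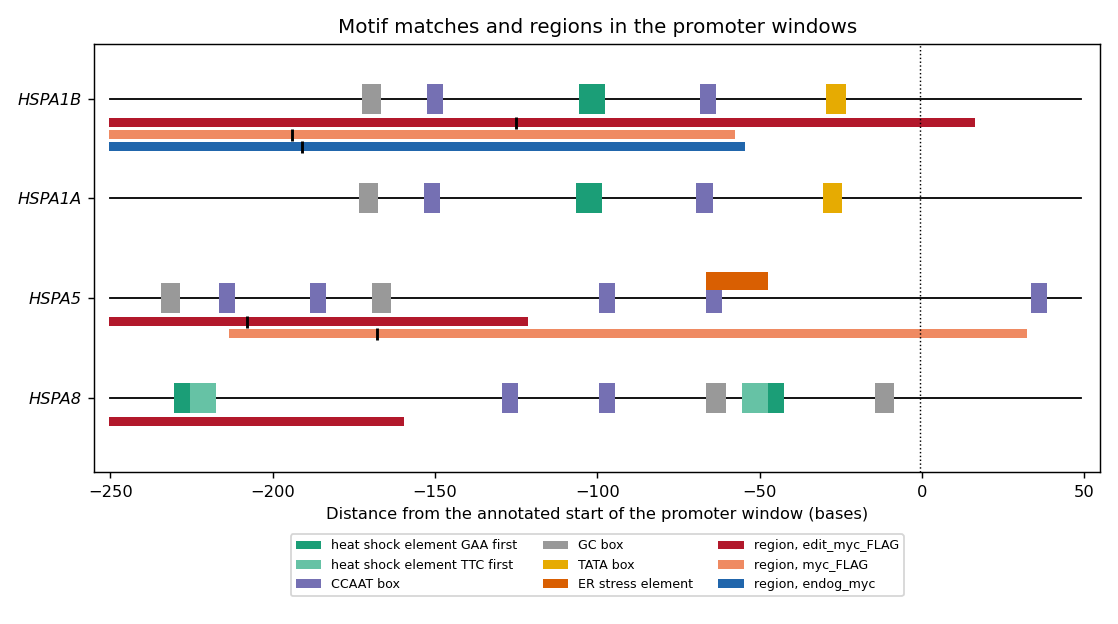
Motif matches (coloured boxes) in the 300-base promoter windows of the 4 genes, with the parts of the regions that fall in each window as thin bars below and their summits as black ticks. The x axis gives the distance in bases from the start in the RefSeq promoter table (dotted line). HSPA1B and HSPA1A hold the same motifs in the same order. The exact ER stress element match of HSPA5 falls within the myc_FLAG bar and not within the edit_myc_FLAG bar.

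The rest of the HSP70 system was followed in 7 lists of 119 other genes. In all, 9 had a region in edit_myc_FLAG (7.56%, 95% Wilson interval 4.03 to 13.8), 4 in myc_FLAG (3.36%, 1.31 to 8.32) and 6 in endog_myc (5.04%, 2.33 to 10.6), and 0 had one in either IgG list, which allows up to 2.52%. Over all protein-coding genes the shares were 4.27%, 1.65% and 1.8% in that order. With a −log10 q of at least 5 the endog_myc count was 2 in place of 6. The intervals cover counting error only, and the limit given for a count of 0 here and below is 3 counts of the total, which is not the upper end of the Wilson interval drawn in the plot of the 7 lists. No difference was tested.

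None of the other 12 HSP70 family genes had a region in any list, which allows up to 25.0%. They include HSPA9, the mitochondrial form, HSPA6, a strictly inducible form, HSPA1L, and the large relatives HSPH1 and HYOU1, which act as exchange factors. Of 38 J-domain genes, 3 had a region in edit_myc_FLAG (7.89%, 2.72 to 20.8), an interval that holds the 4.27% of all genes, and 0 had one in the other lists, which allows up to 7.89%. DNAJC27 had a fold of 7.34, DNAJB9, an HSPA5 partner of the endoplasmic reticulum, 6.31, and DNAJB11, another such partner, 6.17. The DNAJB11 summit was 172 bp from its end and 5 bp from an end of TBCCD1.

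Of 14 exchange factors and adaptors, 2 had a region in edit_myc_FLAG (14.3%, 4.01 to 39.9). In each of myc_FLAG and endog_myc it was 1 (7.14%, 1.27 to 31.5). These intervals hold the shares of all protein-coding genes, 4.27%, 1.65% and 1.8% in edit_myc_FLAG, myc_FLAG and endog_myc. STIP1, which links HSP70 to HSP90, was in all 3 target lists where edit_myc_FLAG gave a fold of 6.56, myc_FLAG 6.85 and endog_myc 7.09. Its summits lay 475 to 520 bp from its end. BAG4, an exchange factor, was in edit_myc_FLAG with a fold of 8.74 in a region nearer to LSM1. Among 10 HSP90 genes, HSP90B1, the form of the endoplasmic reticulum, was in myc_FLAG with a fold of 7.01. For this 1 of 10 genes the interval was 1.79 to 40.4%, just above the 1.65% of all genes. It rests on 1 gene of a list chosen with earlier results known, so nothing is read from that gap. In every other list, 0 of the 10 had a region. Among 16 chaperonin and prefoldin genes, TCP1 was in endog_myc with a fold of 4.61 in a region nearer to MRPL18. That is 6.25% (1.11 to 28.3), an interval that holds the 1.8% of all genes. None of the 7 small heat shock and heat shock factor genes, HSF1 and HSPB1 among them, had a region in any list, which allows up to 42.9%.

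The folding and stress genes of the endoplasmic reticulum, to which HSPA5 belongs by function but in which it is not counted, had 4 of 22 members with a region in edit_myc_FLAG (18.2%, 7.31 to 38.5), 2 in myc_FLAG (9.09%, 2.53 to 27.8) and 4 in endog_myc (18.2%, 7.31 to 38.5). The shares of all protein-coding genes, 4.27%, 1.65% and 1.8%, lie below these intervals. The list was chosen with earlier results of these data known, so nothing is read from that gap, and it was not tested. In endog_myc P4HB had a −log10 q of 21.1, while EIF2AK3 (4.24), PDIA4 (3.13) and CRELD2 (2.11) were below 5. Also below 5 were EIF2AK3 (3.04) in myc_FLAG, and SDF2L1 (3.63) and HERPUD1 (1.87) in edit_myc_FLAG. P4HB, a protein disulfide isomerase, and EIF2AK3, the stress kinase PERK, were in all 3 target lists. The P4HB fold was 8.66 for edit_myc_FLAG, 9.04 for myc_FLAG and 10.2 for endog_myc, above those of every HSP70 gene in the same list. EIF2AK3 had 6.32, 5.004 and 5.48 in that order. SDF2L1 (5.08), a component of chaperone complexes with HSPA5, and HERPUD1 (4.22), a factor of protein degradation at the endoplasmic reticulum, were in edit_myc_FLAG alone. PDIA4 (4.90), a disulfide isomerase, and CRELD2 (4.32), a stress-induced secretory protein, were in endog_myc alone, and the CRELD2 region was nearer to ALG12. None of the regions at genes of the 7 lists overlapped an IgG region.

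**Figure D4:**
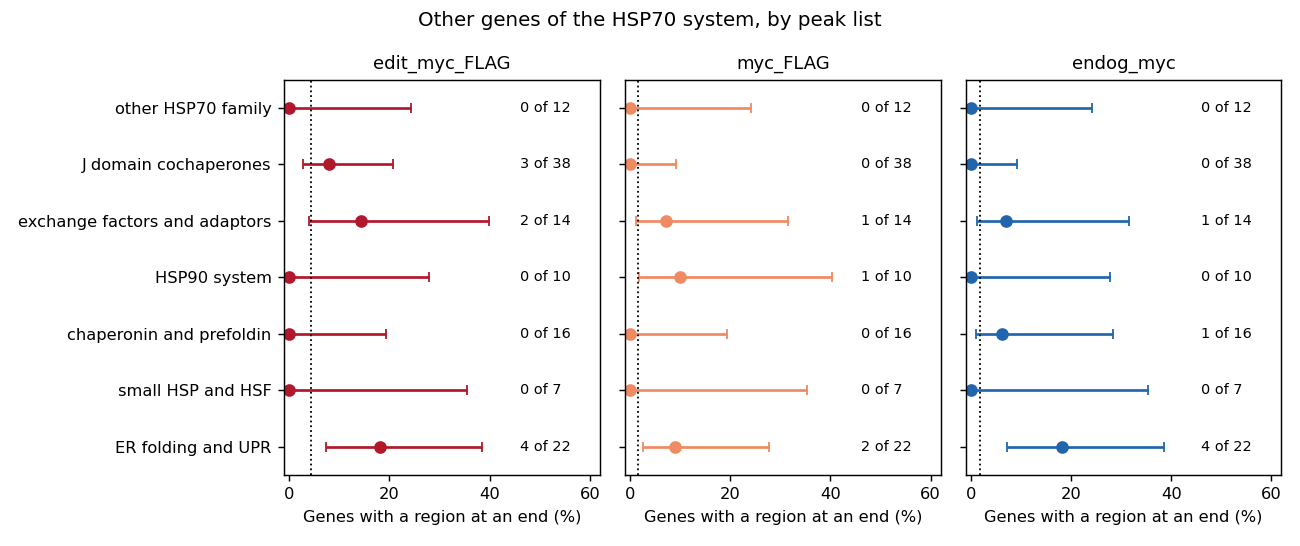
Share of genes with a region at an end, in percent, for 7 lists of other HSP70 system genes in the 3 target lists. Points are shares with 95% Wilson intervals for counting error, the counts stand at the right, and the dotted line is the share of all protein-coding genes. The other HSP70 family and small heat shock lists are at 0 in each panel, and the endoplasmic reticulum list has 4, 2 and 4 of 22 genes from left to right.

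Genes with the most similar pattern were sought among those with regions in the same target lists and none in IgG, by the summed difference in within-list rank by fold, in percent of the list. For HSPA1B, over 3 lists and 137 candidates, they were LENG1 and TMC4, which share 1 region on chromosome 19 (11.4 points), and CNOT3, a subunit of the CCR4-NOT deadenylase (14.6 points). The CNOT3 fold was 5.16 for edit_myc_FLAG, 7.43 for myc_FLAG and 8.42 for endog_myc. For HSPA5, over 2 lists and 72 candidates, they were MTHFD1, a folate enzyme (5.50 points, folds of 7.20 in edit_myc_FLAG and 5.19 in myc_FLAG), NF2, the tumour suppressor merlin (6.02 points), and FAHD1, a mitochondrial decarboxylase (9.05 points). For HSPA8 the pattern rests on 1 list and 543 candidates, and ZBTB37, CTNNBIP1 and FASTKD3 had folds of 6.15, 6.12 and 6.12 there. Likeness over so few lists is a description only.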

How the data were processed

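The deposited data were 5 peak lists on hg38. Tools named in the submitters' processing notes are MACS3 3.0.0b1, Bowtie2 2.4.5, HOMER 4.10 and SAMtools 1.15. The sources used here do not give their roles and options, the control library or how libraries were merged. In the deposited lists each peak has a fold enrichment (a linear ratio), a −log10 q and a caller score, all made by the authors, as well as start, end and summit; only fold, −log10 q and positions were used here. Depth is unknown.

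Regions were linked to protein-coding genes of a RefSeq table (GRCh38.p14) by summits within 1000 bp of a span end, with Python 3.11.15 and pandas 2.3.3, and the rule was checked on simulated peaks. Strand, starts and sequence came from a RefSeq promoter table that held all 4 genes; exons and UTRs were not used. Windows were aligned with Biopython 1.88. Positions count from 1. Overlap means at least 1 bp. The members and gene lists were chosen with earlier results of these data known. Text names the members, genes with an end within 1000 bp of their regions, list genes with a region (at most 6 a list, by fold) and the 3 genes most alike in rank for each member; other names were chosen after values were seen. With 1 merged list per group, no test between groups was run. Alternatives changed the distance, the point measured, the q threshold, the list length, IgG regions, the overlap and the ranking value.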

Additional observations from a re-analysis of the deposited data

How the results depend on the processing

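Of 52 recomputed counts of genes with a region, 49 stayed within 1.5 times the reported count. The 52 include the IgG counts, which were 0 throughout. In edit_myc_FLAG, falls from 9 to 6 other HSP70 system genes and from 3 to 2 members count as within that limit. So does a fall in endog_myc from 6 to 4 other HSP70 system genes at a gene-end distance of 500 bp. Rises of that endog_myc count to 7 at 2000 bp, and to 7 with any base of the peak, count too. The 49 are therefore not a measure of stability. The counts of the 4 HSP70 genes did not change at gene-end distances of 500 and 2000 bp. Nor did they with any base of the peak in place of the summit or without regions that overlap IgG. These settings could not have changed them and are no check of these counts. The summits lay 38 to 208 bp from a gene end, and the nearest other row was 9602 bp away. No HSP70 region shared a base with an IgG region. With the 1290 highest-fold regions of each target list, edit_myc_FLAG had 2 of the 4 genes in place of 3. With a −log10 q of at least 5, edit_myc_FLAG kept 1 of the 4 genes (HSPA5), myc_FLAG kept 1 (HSPA1B) and endog_myc kept 1 (HSPA1B), and the other HSP70 system genes in endog_myc numbered 2 in place of 6. The reported −log10 q values lie on either side of that limit, so the limit itself removes the others. When 50% of the shorter region had to be shared, 3 in place of 5 of the 6 regions overlapped another target list, as the HSPA5 regions share 46.9%. Ranked by −log10 q over the whole lists, the regions stood lower, at 78.9% of the list in place of 66.7% for HSPA1B in edit_myc_FLAG, 43.3% in place of 22.7% in myc_FLAG and 30.1% in place of 16.0% in endog_myc. For HSPA5 it was 36.5% in place of 19.0% in edit_myc_FLAG and 81.8% in place of 52.6% in myc_FLAG, and for HSPA8 50.1% in place of 31.8%. Among regions at gene ends alone, the rank of HSPA1B by −log10 q was 517 in place of 521 in edit_myc_FLAG, 30 in both rankings in myc_FLAG and 16 in place of 21 in endog_myc. There HSPA5 ranked 132 in place of 76 in edit_myc_FLAG and 171 in place of 150 in myc_FLAG, and HSPA8 242 in place of 198. The cause was not tested. No paired analysis was possible because each target list merges its 3 libraries. Leaving out single libraries could not be done for the same reason.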
